A study of Mus musculus with 30 samples.

Results

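Transcripts of 10 core autophagy and mitophagy genes were measured by RNA sequencing in mouse quadriceps. They were Ulk1, Becn1, Wipi1, Atg5, Atg7, Map1lc3a, Map1lc3b, Gabarapl1, Sqstm1 and Bnip3, chosen by symbol from the 56748 genes of the count table. All 10 passed the filter on low counts. In the edgeR test Gabarapl1 alone of these genes rose against untreated mice of the same genotype, and it did so at the highest dose of pacDNA-L9.

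Mice were injected at 8 weeks of age, and quadriceps were taken 2 weeks after the last injection. WT was untreated FVB/N (n = 5). All other mice, whose genotype the labels give as DM1, carried the HSA-LR transgene, a human skeletal actin gene with a long CTG repeat that models myotonic dystrophy type 1 in skeletal muscle fibres. They were untreated (NT, n = 8) or were injected into the tail vein. pacDNA-L9 is a bottlebrush polymer that carries L9, a short locked nucleic acid oligonucleotide of CAG repeats. It was given to 4 mice at 5.3 mg/kg, to 3 mice at 21.2 mg/kg and to 3 more at 42.4 mg/kg. Free L9 at 5.3 mg/kg (n = 3) is the oligonucleotide without the polymer, Brush (40 nanomoles, n = 2) is the polymer without an oligonucleotide, and pacDNA-Scr at 5.3 mg/kg (n = 2) carries a scrambled sequence. The 2 higher doses were reached with repeated injections, so that dose and number of injections cannot be told apart.

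Libraries held 13605309 to 26956558 counts. Of the 30, 6 came from a second deposited set (2 NT, 2 at 5.3 mg/kg, 1 at 21.2 mg/kg and 1 free L9), which separated from the other 24 on the first principal component, and the set was a term of the model. The second set was not uniform, since 5 of its 6 libraries list every mitochondrial gene at 0 and free L9 replicate C does not. Free L9 replicate B was also apart, with 14445 genes detected at equal depth against 17475 or more in the rest of the first set. Sex was inferred from the counts of Xist and of genes on the Y chromosome. By this measure all 3 mice at 42.4 mg/kg were female, as were 4 of 8 NT and 4 of 5 WT mice. The 6 markers of muscle fibres were detected in every group and summed to 89367 to 150491 CPM (counts scaled to a common library total) over all libraries.

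Autophagy encloses cytoplasm in a double membrane that fuses with the lysosome, and muscle uses it to clear worn mitochondria and to release amino acids when food is short. The ULK1 kinase starts the process, a lipid kinase complex that contains Beclin 1 marks the membrane, and WIPI proteins read that mark. ATG7 and ATG5 belong to the machinery that attaches the ubiquitin-like ATG8 proteins (the LC3 and GABARAP families) to the membrane, where receptors such as p62 bring cargo. FoxO transcription factors are known to raise several of these genes in muscle during fasting.

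The sequence upstream of the Gabarapl1 start is given because this is the member that rose. It is chr6:129532942-129533191 on the plus strand of GRCm38.p6, the build of the RefSeq promoter table, and holds 250 bases that end just before the start. Capitals mark the match to NTAAACA, a form of the FoxO motif, which was searched on both strands.

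Gabarapl1 upstream: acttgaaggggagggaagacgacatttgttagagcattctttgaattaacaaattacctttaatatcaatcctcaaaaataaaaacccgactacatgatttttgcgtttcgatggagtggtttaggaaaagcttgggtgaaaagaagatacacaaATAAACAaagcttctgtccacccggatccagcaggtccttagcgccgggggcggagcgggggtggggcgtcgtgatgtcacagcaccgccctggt

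The match began 95 bases before the start. The promoter table held 8 of the 10 genes, all but Map1lc3a and Becn1, with a window around each start. Of those 8, only Gabarapl1 held NTAAACA, which 13.4% of all 32851 promoters in the table held. CACGTG, the core of the element bound by TFEB and related factors, was present in Bnip3, Atg5 and Atg7, and in 7.15% of all promoters. TGACNNNGC, the core of the antioxidant response element, was present in Map1lc3b and in 12.4% of all promoters. No promoter of the 8 held more than 1 of the 3 motifs, so no matches overlapped. A match is a description of the letters and not evidence of binding.

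L9 is complementary to CUG repeats in RNA, so the canonical transcripts of the 10 genes were searched for CTGCTGCTG. Atg7 held it once, in the coding part of exon 11, and the other 9 transcripts did not hold it. Among all 21593 canonical protein-coding transcripts, 15.2% did. The site is shown in capitals with 20 bases on each side, from chr6:114678960-114679008 on the plus strand of GRCm39.

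Atg7 site: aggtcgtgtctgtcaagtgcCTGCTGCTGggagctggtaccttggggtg

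Per kilobase of canonical transcript, Map1lc3b, Map1lc3a and the cargo receptor Sqstm1 were the most abundant members. The order depends on the length used, since counts are per gene and a gene can hold more exon bases than its canonical transcript. Map1lc3b has 7617 exon bases and a canonical transcript of 889, and Gabarapl1 has 3698 and 1820. In WT muscle Map1lc3b stood at 253 ± 22.9 CPM per kb (SD, n = 5), followed by Map1lc3a at 154 ± 20.4 and Sqstm1 at 142 ± 13.9, and the last pair did not differ beyond its spread. Bnip3 (27.4 ± 2.97), Wipi1 (26.1 ± 0.632), Gabarapl1 (19.5 ± 4.05) and Ulk1 (16.0 ± 2.34) formed a middle group, in which Bnip3 and Wipi1 differed by less than the SD of Bnip3, and Gabarapl1 and Ulk1 by less than the SD of Gabarapl1. Becn1 (10.3 ± 0.759), Atg5 (6.11 ± 0.791) and Atg7 (3.25 ± 0.204) were lowest and separated from one another by more than their SDs. Gabarapl1 was the 6th of the 10 in WT and in NT. At 42.4 mg/kg it was the 4th, at 68.5 ± 16.7 CPM per kb (n = 3). All later values are CPM without division by length.

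**Figure D1:**
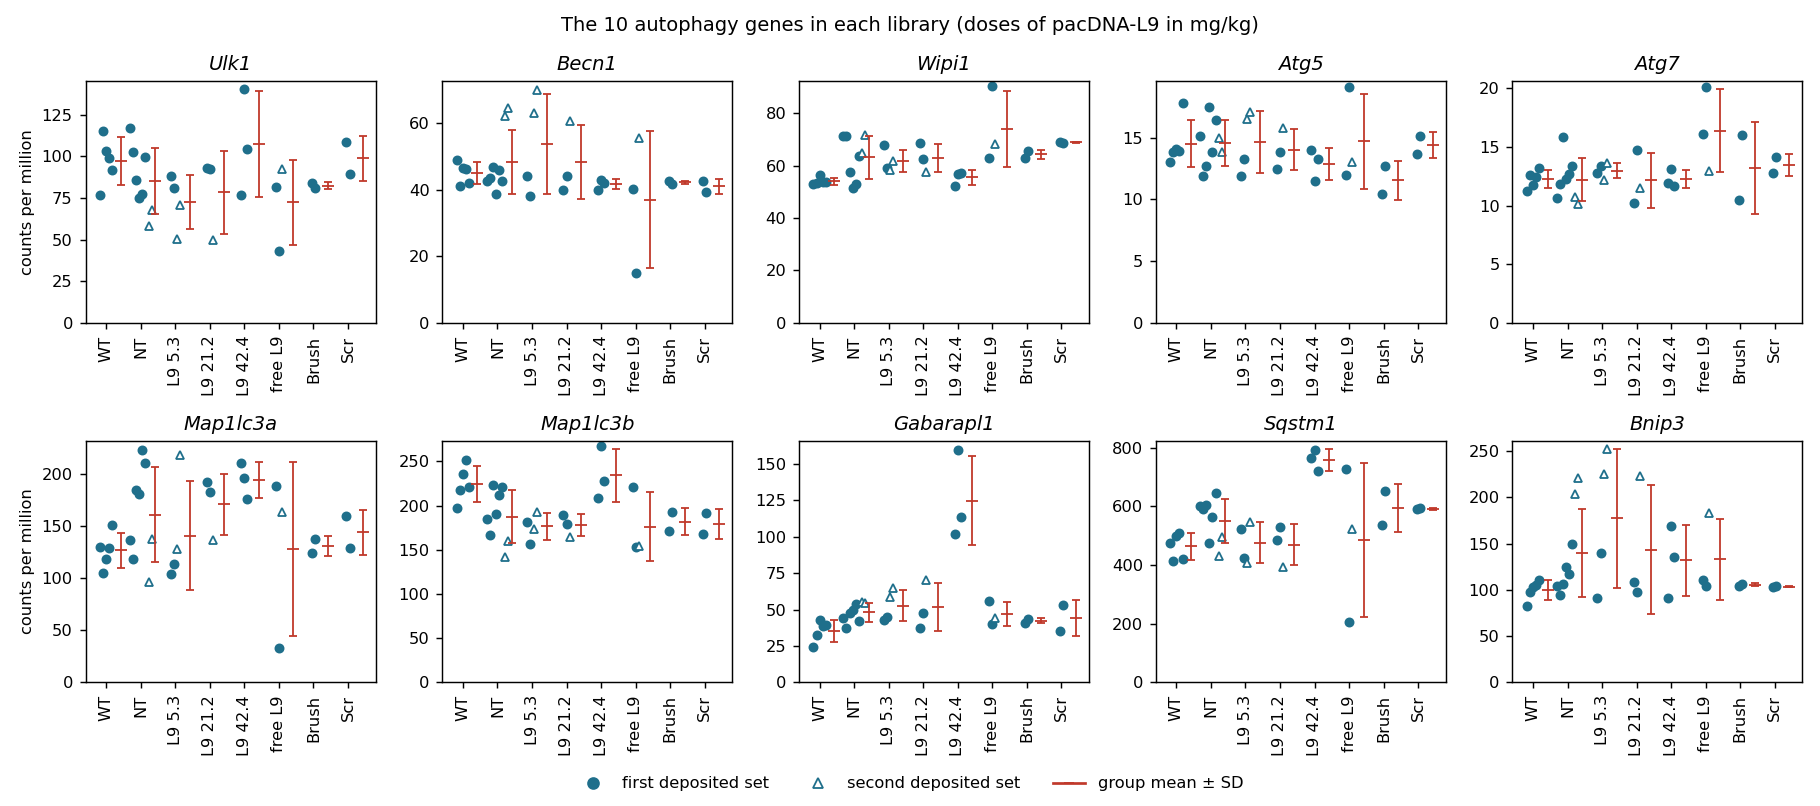
Each panel plots one gene in CPM (vertical axis, from 0) for each library of the 8 groups (horizontal axis). Filled circles are libraries of the first deposited set, open triangles those of the second, and red bars the group mean ± SD. The Gabarapl1 libraries at 42.4 mg/kg lie between 102 and 159, above all other libraries, and the triangles of Becn1 and Bnip3 lie above all circles.

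Gene positions are given in GRCm39 throughout. In Becn1 and Bnip3 the 2 deposited sets did not overlap. Becn1 (chr11:101176769-101193122), the Beclin 1 gene, ran from 15.0 to 48.8 CPM in the first set and from 55.6 to 69.9 CPM in the second. Bnip3 (chr7:138490690-138511253), a mitophagy receptor of the outer mitochondrial membrane, ran from 82.3 to 169 CPM and from 183 to 252 CPM. The fitted log2 difference between the sets was 0.66 for Becn1, 0.94 for Bnip3 and 0.34 for Gabarapl1. Each of these 3 genes shares exon bases with a gene on the opposite strand (43.8%, 11.7% and 31.0% of its exon bases), and the counts of those neighbours differed between the sets as well. Cntd1, opposite Becn1, had 0 to 8 counts in the first set and 330 to 648 in the second. Gm45507, opposite Bnip3, had 0 counts in every library of the first set and 1379 to 3306 in the second. 1700101I11Rik, opposite Gabarapl1, had 0 to 38 and 156 to 481. Whether reads were counted by strand is not given in the sources used here, so reads of the 2 strands cannot be told apart for these genes, and the means over both sets mix the 2 levels. Every mouse at 42.4 mg/kg was in the first set. Sqstm1 also shares exon bases (18.9%) with genes on the opposite strand, Mgat4b and Mrnip, so its strands cannot be told apart either.

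The first comparison set untreated HSA-LR mice against untreated WT mice. No group carried the transgene without its long repeat, so the part of the repeat cannot be told apart. None of the 10 members passed the test in NT against WT (edgeR, adjusted p under 0.05), where 5.31% of the 17518 genes tested did. DESeq2 called none either, and 2 members had an unadjusted p under 0.05 in edgeR, Gabarapl1 and Wipi1. Gabarapl1 (ENSMUSG00000030161, chr6:129509725-129520544 plus strand), the GABARAP-like 1 gene, stood at 24.1, 32.5, 42.8, 38.7 and 39.3 CPM in the 5 WT mice. In the 8 NT mice it ran from 37.5 to 55.0 CPM with a median of 48.7. Most NT mice lay above the highest WT mouse, but the groups overlapped, with a log2 fold change of 0.35 (SE 0.15, adjusted p = 0.228 by edgeR). Wipi1 (chr11:109464156-109502793), whose protein binds the lipid mark on the forming membrane, stood at 53.2 to 56.3 CPM in WT and 51.5 to 71.7 CPM in NT (median 64.3), with a log2 fold change of 0.23 (SE 0.10, adjusted p = 0.245 by edgeR). NT spanned a wider range than WT on both sides.

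The other 8 members had log2 fold changes in NT against WT from -0.22 (Map1lc3b) to 0.35 (Map1lc3a). The median over the 10 was 0.12, beside -0.03 over all genes tested. Map1lc3a had the widest interval, -0.21 to 0.90, and its NT mice ran from 96.4 to 223 CPM against 105 to 151 CPM in WT. Atg5 and Atg7 had intervals of -0.30 to 0.25 and -0.21 to 0.30.

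The largest change among the members was that of Gabarapl1 at 42.4 mg/kg. Its 3 mice stood at 102, 159 and 113 CPM, and no NT mouse exceeded 55.0 CPM. The groups did not overlap, within the first set (NT 37.5 to 53.5 CPM) or over both sets. The log2 fold change against NT was 1.47 (SE 0.17, 95% interval 1.12 to 1.81), a 2.76-fold rise, with an adjusted p of 3.49e-06 by edgeR. It was the 13th of the 17518 genes tested when these were ordered by p, and the 409th when ordered by log2 fold change. It was 1 of the 10 members called, where 3.14% of all genes tested were called.

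Against WT the change in Gabarapl1 was 1.81 (SE 0.18, interval 1.44 to 2.19, adjusted p = 1.36e-07 by edgeR). The WT mean (35.5 CPM) was below the NT mean (48.0 CPM), a difference that was not called. As background, GABARAPL1 is an ATG8 protein whose transcript is known to respond to FoxO factors in muscle. Per length, Gabarapl1 made up 3.74% ± 0.617 (SD, n = 5) of the summed transcripts of the 5 ATG8 genes in WT, 5.07% ± 1.30 (n = 8) in NT and 9.98% ± 1.79 (n = 3) at 42.4 mg/kg. The lowest share at 42.4 mg/kg was 8.35%, and the highest NT share was 7.62%. These shares use the canonical lengths, as above, and depend on that choice.

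**Figure D2:**
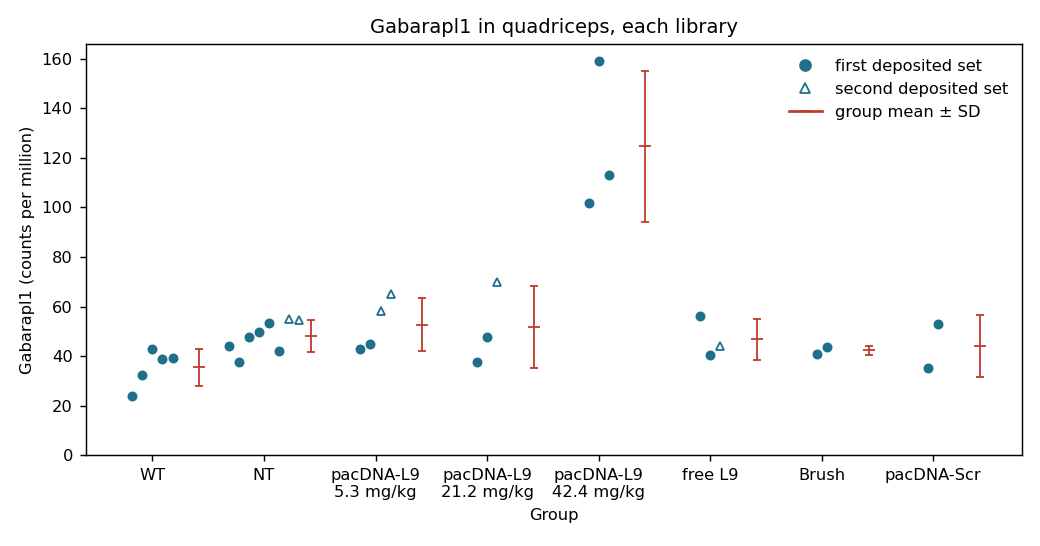
Gabarapl1 in CPM (vertical axis, from 0) in each library of the 8 groups (horizontal axis), with the first deposited set as filled circles, the second as open triangles and the group mean ± SD in red. The 3 mice at 42.4 mg/kg lie between 102 and 159, and the highest of the other libraries, 1 mouse of the second set at 21.2 mg/kg, lies at 70.1.

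Gabarapl1 did not pass the test in any other treated group against NT. At 21.2 mg/kg the mice stood at 37.6, 47.5 and 70.1 CPM, the last from the second set (log2 fold change 0.05, interval -0.31 to 0.41). At 5.3 mg/kg they stood at 42.9, 44.8, 58.4 and 65.0 CPM, the last pair from the second set (0.04, interval -0.30 to 0.37). Free L9 gave 56.1, 40.4 and 44.0 CPM (-0.04, interval -0.40 to 0.31). Brush gave 41.0 and 43.6 CPM (-0.09, interval -0.52 to 0.33) and pacDNA-Scr gave 35.4 and 52.9 CPM (-0.03, interval -0.45 to 0.39). Each of these groups overlapped NT. The upper bounds lay below 1.12, the lower bound at 42.4 mg/kg, and the difference between these groups was not itself tested.

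Several features of the libraries at 42.4 mg/kg bear on this value. Replicate B was the highest of the 3, and without it the log2 fold change was 1.25 (adjusted p = 0.000395 by edgeR). All 3 mice were female, and among the females of NT the range was 47.7 to 55.0 CPM. With females only, an alternative chosen after the data were seen, the log2 fold change was 1.35 and the gene was called. The 3 libraries carry running numbers in the table in place of coded names, as do 6 others of the first set. With the style of name in place of the set in the model, the value was 1.27 (adjusted p = 0.00139 by edgeR). Within that style the 1 NT library stood at 42.1, Brush B at 43.6, pacDNA-Scr B at 52.9, free L9 A and B at 56.1 and 40.4 and the WT library at 39.3 CPM, all below the lowest mouse at 42.4 mg/kg. The opposite-strand gene 1700101I11Rik rose too, by 1.81 on the log2 scale (adjusted p = 0.042 by edgeR), to 20 to 38 counts from 3 to 13 in the NT libraries of the first set. Gabarapl1 had 2168 to 2921 counts in the same libraries.

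Macrophage markers were higher in the 42.4 mg/kg group, and their summed level was above NT at the lower doses too. Of the 6, 4 rose against NT and none fell, and their summed level was 208 to 304 CPM against 53.1 to 99.1 CPM in NT. Their part in the rise of Gabarapl1 was not tested. The same markers summed to 101 to 237 CPM at 21.2 mg/kg, 115 to 157 CPM at 5.3 mg/kg, 161 to 170 CPM in Brush, 91.2 to 133 CPM with pacDNA-Scr and 51.3 to 77.3 CPM with free L9, where Gabarapl1 was not called. In a bulk sample a change in the number of cells of a type and a change in RNA per cell cannot be told apart. None of the 6 muscle fibre markers passed the test, with log2 fold changes from -0.18 to 0.22. Nor did any of the 5 slow fibre markers, whose log2 fold changes were 2.20 to 2.57. Their sums overlapped (57.4 to 1396 CPM against 3.09 to 1026 in NT). Against WT, 4 of the 6 macrophage markers (log2 fold changes 0.35 to 3.62) and 1 of the 6 muscle fibre markers rose. Of 4 fibroblast markers 1 rose and 1 fell, and 1 of 3 endothelial markers fell. No slow fibre marker passed there (2.48 to 3.26). None of the 4 adipocyte markers passed against NT (-2.33 to -0.59) or against WT (-3.16 to -1.57), and their sums overlapped those of both groups. The part of these markers in the calls against WT was not tested.

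The 2 other ATG8 members were not called. Map1lc3b (chr8:122317100-122325499), which encodes the LC3B protein used as a marker of autophagosomes, stood at 209, 267 and 227 CPM at 42.4 mg/kg and ran from 142 to 223 CPM in NT (median 187), an overlap. Its log2 fold change was 0.28 (interval 0.01 to 0.55), with an unadjusted p of 0.0427 and an adjusted p of 0.353 by edgeR. Map1lc3a (chr2:155118217-155119998) stood at 211, 197 and 176 CPM, inside the NT range of 96.4 to 223 CPM (log2 fold change 0.27, interval -0.38 to 0.92). A further pair of genes of the family from the wider list, Gabarap and Gabarapl2, had log2 fold changes of 0.16 (SE 0.15) and 0.02 (SE 0.16) and were not called. The difference between Gabarapl1 and its relatives was not itself tested.

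Sqstm1 (ENSMUSG00000015837, chr11:50089572-50107684, minus strand), which encodes the cargo receptor p62, had the next largest fold change at 42.4 mg/kg. Its mice stood at 764, 791 and 719 CPM, and the NT mice ran from 432 to 646 CPM (median 578). The 2 groups did not overlap, but the change against NT did not pass the test (log2 fold change 0.43, SE 0.21, interval -0.0015 to 0.85, adjusted p = 0.384 by edgeR). Against the 5 WT mice, at 474, 412, 501, 511 and 420 CPM, the rise was 0.71 (SE 0.22, interval 0.25 to 1.16, adjusted p = 0.0397 by edgeR). With Gabarapl1 this made 2 of 10 members called in that comparison, where 9.98% of all genes tested were called. Map1lc3a lay above WT without overlap but was not called (0.62, interval -0.07 to 1.31, adjusted p = 0.278 by edgeR). Bnip3 had an unadjusted p of 0.0220 (0.40, adjusted p = 0.129 by edgeR) and was not called either. The Sqstm1 log2 fold change stayed at 0.67 to 0.75 with 1 mouse left out and was 0.70 within the first set alone. Its call did not hold when any 1 of the 8 mice compared was left out, nor within the first set (adjusted p = 0.0567 by edgeR). With 1 mouse left out the adjusted p by edgeR ran from 0.0509 (WT replicate 4) to 0.133 (replicate B of the treated group).

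**Figure D3:**
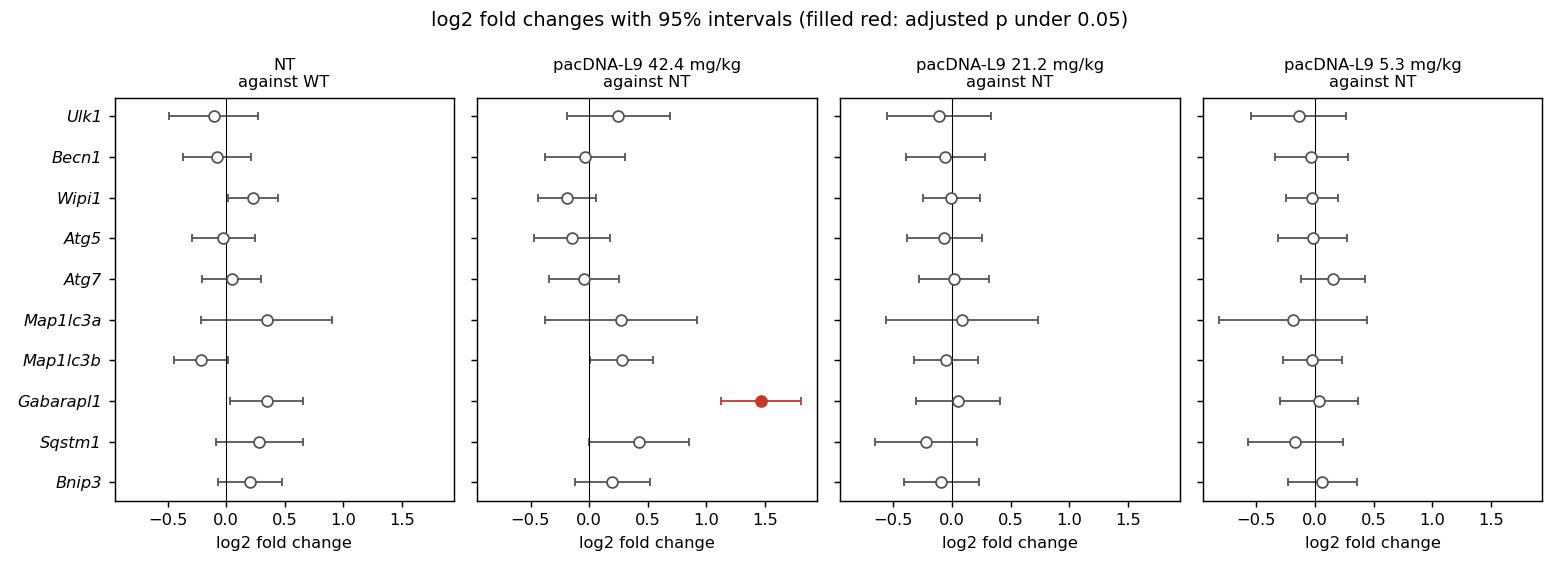
log2 fold changes of the 10 genes (rows) in 4 comparisons (panels) from the edgeR fit, with 95% intervals and a line at 0. The filled red point is the only one past an adjusted p of 0.05, Gabarapl1 at 42.4 mg/kg against NT at 1.47, and the other intervals at the 3 doses reach from -0.82 to 0.92.

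Of the members that act early in autophagy, Ulk1, Becn1 and Wipi1 were not called at 42.4 mg/kg. Ulk1 (chr5:110931496-110957995), the initiating kinase, stood at 76.9, 140.3 and 104 CPM, within and above the NT range of 58.1 to 117 CPM (log2 fold change 0.25, interval -0.19 to 0.69). Becn1 stood at 40.0, 42.8 and 41.998 CPM, inside the first-set NT range of 38.8 to 46.9 CPM (-0.03, interval -0.37 to 0.31). Wipi1 stood at 52.4, 56.9 and 57.4 CPM against 51.5 to 71.7 CPM in NT (-0.19, interval -0.44 to 0.06).

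Atg5 (chr10:44142076-44240308) and Atg7 (chr6:114620044-114837576), both needed to attach ATG8 proteins to lipid, had log2 fold changes of -0.15 (interval -0.47 to 0.17) and -0.04 (interval -0.34 to 0.26). Atg7, whose transcript holds the CTG site shown above, stood at 11.9, 13.2 and 11.7 CPM, inside the NT range of 10.1 to 15.9 CPM. Bnip3 stood at 91.4, 169 and 135 CPM, against 94.98 to 149.8 CPM in the first-set NT mice (0.20, interval -0.12 to 0.52). Without a term for the set its value was -0.09. The median over the 10 members was 0.22, beside -0.02 over all genes tested.

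At the lower doses and in the control groups no member was called by edgeR against NT. None of the 10 was called at 21.2 mg/kg, where 0.0685% of genes tested were, and none had an unadjusted p under 0.05 by edgeR. Their log2 fold changes ran from -0.22 to 0.09. At 5.3 mg/kg none was called among 0% of genes tested, with values from -0.19 to 0.15. Across all genes at this dose 277 had an unadjusted p under 0.05 in edgeR, and DESeq2 called 5 genes and no member. Brush gave 0% of genes called (329 at an unadjusted p under 0.05, 5 by DESeq2), with members from -0.30 (Atg5) to 0.08 (Sqstm1). pacDNA-Scr gave 0% (270 at an unadjusted p under 0.05, 0 by DESeq2), with members from -0.16 (Map1lc3a) to 0.13 (Ulk1). No member had an unadjusted p under 0.05 in these 3 groups. With 2 mice in each of the last pair, the widest interval reached 0.78 to either side of its value.

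Free L9 gave no called member, where 0.942% of genes tested were called, but 2 had an unadjusted p under 0.05 by edgeR. Becn1 stood at 40.3 CPM in replicate A, 15.0 in B and 55.6 in C, the last from the second set. Its log2 fold change against NT was -0.50 (SE 0.17, adjusted p = 0.168 by edgeR). Atg7 stood at 16.1, 20.1 and 13.0 CPM (0.44, SE 0.14, adjusted p = 0.143 by edgeR). DESeq2 called Atg7 alone (adjusted p = 0.0447).

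Replicate B, the library with few detected genes, was the lowest of all 30 libraries for Becn1, Ulk1 (43.3 CPM), Map1lc3a (32.9 CPM) and Sqstm1 (205 CPM), and the highest for Atg5 (19.1 CPM), Atg7 and Wipi1 (90.4 CPM). Without it the values were -0.17 for Becn1 (adjusted p = 0.491 by edgeR) and 0.28 for Atg7 (adjusted p = 0.473 by edgeR). Without replicate A, which left B and C, Becn1 was called at -0.82 (adjusted p = 0.00758 by edgeR), and without replicate C Atg7 was called at 0.53 (adjusted p = 0.0461 by edgeR).

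pacDNA-L9 was compared with 2 agents at the matched dose of 5.3 mg/kg, free L9 and pacDNA-Scr. The first pair differs by the polymer and the second by the oligonucleotide's sequence. No member differed in either pair, with p-values adjusted over all genes tested. Against free L9 0.719% of genes tested were called. The members ran from -0.29 (Atg7, interval -0.62 to 0.05) to 0.46 (Becn1, interval 0.08 to 0.85, unadjusted p = 0.0198 and adjusted p = 0.319 by edgeR). Without free L9 replicate A, Becn1 was called at 0.75, and without replicate B it stood at 0.16.

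Against pacDNA-Scr 0% of genes were called (268 at an unadjusted p under 0.05 by edgeR, 0 by DESeq2), with members from -0.27 (Ulk1, interval -0.85 to 0.31) to 0.22 (Bnip3, interval -0.21 to 0.64) and no unadjusted p under 0.05. Gabarapl1 differed by 0.08 (interval -0.33 to 0.49) in the first pair and by 0.07 (interval -0.41 to 0.55) in the second. Differences within these intervals are not excluded.

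Where a treatment had mice in both deposited sets (5.3 mg/kg, 21.2 mg/kg and free L9), its effect against NT was compared between the sets. At 21.2 mg/kg and with free L9 the second set held 1 treated mouse each, whose spread was taken to be that of the other groups, so these comparisons show little about stability. No member passed the adjusted threshold in edgeR, and at 5.3 mg/kg, with 2 treated mice in each set, 2 members had an unadjusted p under 0.05. Map1lc3a at 5.3 mg/kg was -0.69 in the first set and 0.57 in the second, and Map1lc3b was -0.24 and 0.28. With free L9, Ulk1 was -0.57 in the first set, which holds replicate B, and 0.55 in the second (adjusted p of the difference 0.153 by edgeR).

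The 10 genes belong to a wider set of 77 autophagy genes in 8 lists, of which 76 were tested. In NT against WT 6 of the 76 rose and none fell, a share to be read against the 5.31% of all genes called. The median log2 fold change was 0.08. The highest 3 were Uvrag (0.99, SE 0.14, adjusted p = 2.15e-05 by edgeR), Retreg1 (0.81) and Nrbf2 (0.62). UVRAG and NRBF2 are partners of Beclin 1 in its lipid kinase complexes, and RETREG1 is a receptor for the degradation of endoplasmic reticulum. Uvrag ran from 9.49 to 13.2 CPM in WT and from 17.3 to 28.99 CPM in NT, with no overlap. The genes called also included Atg4a and Nbr1, and none of those called was a member of the 10. Without WT replicate 1 the count was 2, without WT replicate 3 it was 3, and with females only it was 1. Of the cell type markers, 1 of 6 for macrophages and 1 of 6 for muscle fibres rose in NT against WT. Their log2 fold changes ran from -0.39 to 1.54 and from -0.19 to 1.29, and their part in the list's change was not tested.

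At 42.4 mg/kg against NT 7 of the 76 rose, Gabarapl1 among them, and none fell, where 3.14% of all genes were called. The median was 0.10. The highest were Foxo1 (1.90, SE 0.29, adjusted p = 0.000163 by edgeR), Trp53inp1 (1.53, SE 0.30, adjusted p = 0.00277) and Gabarapl1. Foxo1 encodes a FoxO transcription factor and Trp53inp1 a protein that binds ATG8 proteins. Foxo1 stood at 57.8, 169 and 81.5 CPM against 21.0 to 37.7 CPM in NT, with no overlap. Trp53inp1 stood at 11.7, 62.5 and 21.6 CPM against 8.98 to 14.7 CPM, and replicate A lay inside the NT range. The other 4 were Retreg1 (1.06), Foxo3 (1.01), Atg13 (0.62) and Tollip (0.56).

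By list, the regulators gave 3 of 11 called, the cargo and mitophagy receptors 2 of 17, the ATG8 family 1 of 5 and the ULK complex 1 of 5. The lipid kinase complex (8 genes), phagophore growth (11), conjugation (11) and fusion (8) gave none. Replicate B was the highest of the 3 mice in each of the 7 genes. Without it 2 of the 7 were called, Gabarapl1 and Foxo1 (1.34, adjusted p = 0.0262 by edgeR), while Trp53inp1 stood at 0.59, Foxo3 at 0.53, Atg13 at 0.49, Tollip at 0.34 and Retreg1 at 0.31 (adjusted p from 0.125 to 0.852 by edgeR). With females only, Foxo1 and Retreg1 of the 6 genes that are not members were called, and Optn, which had not been.

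**Figure D4:**
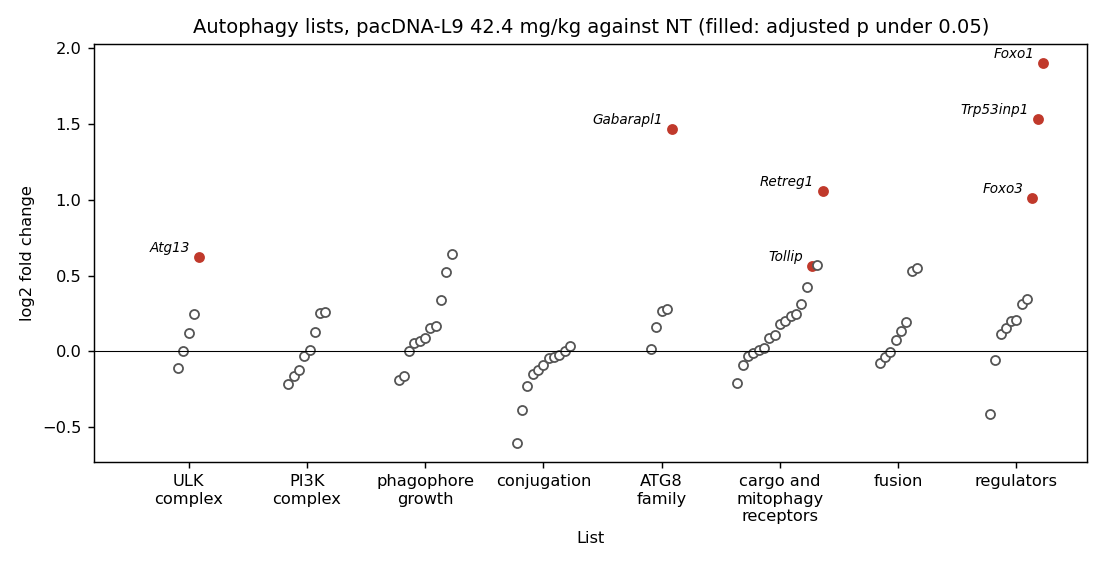
log2 fold change at 42.4 mg/kg against NT (vertical axis) of the 76 autophagy genes tested, grouped by list (horizontal axis) and ordered by value within each list. Filled red points with names are the 7 genes with an adjusted p under 0.05, from Tollip at 0.56 to Foxo1 at 1.90, and open points were not called.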

How the data were processed

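Quadriceps RNA was sequenced from poly(A)-selected, paired-end libraries of 30 mice. The authors deposited 1 table of raw read counts per gene for 56748 genes. Per the submitters' processing notes, reads were aligned with HISAT2 2.0.5 to GRCm39. The counting options are not given in the sources used here. Totals of 13605309 to 26956558 counts set the precision, and 1 WT column could be tied to its group but to no replicate number.

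Counts were tested with edgeR 4.0.16 in R 4.3.3 (filterByExpr, TMM, robust quasi-likelihood F test). All libraries entered 1 model with the group and the deposited set, and p-values were adjusted by Benjamini-Hochberg over 17518 genes at a threshold of 0.05. The test was also run on simulated data, for which no outcome is given here. CPM were computed with the TMM-scaled library sizes. DESeq2 1.42.0, other scalings, filters and covariates, a replicate block and leaving out each library were alternatives. Females only, the wider lists under these settings and blocks on replicate letters were added after the data were seen.

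The members and lists were chosen with earlier results of these data known. All 10 members are named, and of the wider lists up to 3 genes called in each direction with the largest change. Other genes were named after their values were seen.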

Additional observations from a re-analysis of the deposited data

Results flagged for a closer look

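Of 30 combinations of a member and a group with 4 to 10 libraries, 2 held a library far from the rest, and chance gives about 1 in 20. Atg5 stood at 17.8 CPM in the WT library without a replicate number and at 13.0 to 14.1 CPM in the 4 others, so that on the log2 scale the gap was 0.751 of the whole range. Wipi1 stood at 56.3 CPM in WT replicate 3 and at 53.2 to 53.6 CPM in the others, a gap of 0.861 of the range on the same scale.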

How the results depend on the processing

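The rise of Gabarapl1 at 42.4 mg/kg against NT was called under every alternative run, with log2 fold changes of 1.27 to 1.47 and of 1.25 to 1.58 with 1 library left out. The Sqstm1 call against WT was the one that did not hold, though its log2 fold change of 0.71 stayed at 0.67 to 0.75 with 1 library left out and at 0.70 to 0.71 in the 3 settings named next. Members called in that comparison fell from 2 to 1 without the set in the model, with the style of name in place of the set and in the first set only, and ranged from 1 to 2 with 1 library left out. Only the 2 groups compared gave an adjusted p of 0.0119 for Map1lc3a there, and Bnip3 reached 0.0258 without replicate A (edgeR). With free L9 against NT DESeq2 called 1 member, Atg7, and leaving out 1 library gave 0 to 1, as it did for 5.3 mg/kg against free L9. Of the lists other than the 10 members, the count of 6 in NT against WT was 2 without the filter on low counts, 1 with females only, 9 with the 2 groups compared alone and 2 to 6 with 1 library left out. The count of 6 at 42.4 mg/kg was 10 by DESeq2, 3 with females only and 1 to 8 with 1 library left out. The cause was not tested.

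Of 2270 values over all members, comparisons and settings 186 changed sign, and none of these was of a member in a comparison where it was called. Without the set, Becn1 (0.11), Atg5 (0.0018) and Atg7 (-0.0037) changed sign in NT against WT, as did Bnip3 (-0.089) and Atg7 (0.0058) at 42.4 mg/kg. With the style of name Becn1 at 42.4 mg/kg was 0.070, and with sex 0.00075. Gabarapl1 at 21.2 and 5.3 mg/kg was -0.012 and -0.039 with sex, and -0.11 and -0.063 in the first set, where free L9 gave 0.083. Atg5 in NT against WT was 0.013 in the first set and 0.0033 with the 2 groups alone. With 1 library left out, log2 fold changes that crossed 0 were Atg5 (-0.078 to 0.060, 0.015 without NT replicate 2) and Atg7 (-0.015 to 0.083) in NT against WT, and Atg7 (-0.10 to 0.017) and Bnip3 (-0.022 to 0.40) at 42.4 mg/kg. Gabarapl1 ran from -0.11 to 0.20 at 21.2 mg/kg, from -0.017 to 0.080 at 5.3 mg/kg, from -0.28 to 0.12 with free L9 and from -0.35 to 0.23 with pacDNA-Scr.

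Nothing in the labels says that replicate numbers shared by WT and NT pair the mice. The deviations of same-numbered libraries had correlations of 0.223, 0.005, 0.130 and 0.267 (mean 0.156, beside -0.056 for different numbers), so 1 of the 4 pairs showed almost none, and the numbers were not treated as pairs. With the numbers as a replicate block no member was called, Atg5 was 0.046 (0.060 in the same libraries without the block), and 3 genes of the other lists were called (5 without the block). Blocks on the letters of the 5.3 mg/kg mice changed no call. Some WT and NT column names also share a tag that does not follow the replicate numbers, and the blocks described here did not use it. Every treated group held 2 to 4 mice, and changes within the intervals given are not excluded.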
